A study of Bos taurus with 52 samples.

Results

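The genes described here are 40 interferon-stimulated genes of the bovine endometrium that lie outside the better known MX, IFIT, OAS, ISGylation, sensor, IRF and MHC families. They were chosen by name, with earlier results of these data known. The read table, of 31651 named genes, held 36 of them, and the other 4 (BST2, HELZ2, RNF213 and DDX60) were not analysed here. In endometrium 35 of the 36 had enough reads to be tested, the exception being LGALS9 with 11 reads over all endometrium libraries, and in conceptuses 33 were tested, without IFI27, RTP4 and SP110. No tested member had fewer than 75 reads in any non-pregnant endometrium library, so none was measured only where it was high.

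The animals were heifers of 3 fertility classes, infertile (IF), subfertile (SF) and high fertile (HF), and the sources used here give no age, treatment or genotype for them. Endometrium, the lining of the uterus, came from 25 heifers in 5 groups of 5. At day 17 of pregnancy there were an HF group (P-HF) and an SF group (P-SF), and the non-pregnant groups were HF (NP-HF), SF (NP-SF) and IF (NP-IF). The sources used here do not say on which day the non-pregnant samples were taken, and a difference in day and pregnancy cannot be told apart. Conceptuses, the embryo with its extraembryonic membranes, were taken on day 17 and formed 3 groups: C-SF (10 libraries from 7 SF recipients), C-HF-long (10 of the long class from 10 HF recipients) and C-HF-short (7 of the short class from 6 HF recipients), with 19 recipients in all. Sample titles and descriptions name different groups for 12 of the 27 conceptus libraries, and the titles were used. The RNA of each tissue was extracted with its own reagents.

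Type I interferons bind a receptor formed by IFNAR1 and IFNAR2, whose kinases JAK1 and TYK2 phosphorylate STAT proteins that, with IRF9, switch on interferon-stimulated genes. In ruminants the elongating conceptus secretes interferon tau, a type I interferon that acts on the endometrium and prevents the return to the oestrous cycle. The members have varied products, among them proteins of membranes and cell death, of nuclear bodies, of ADP-ribosylation and of RNA metabolism, ubiquitin ligases, and guanylate-binding and related cytoplasmic proteins.

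Libraries held 17077635 to 27292222 counted reads in endometrium and 20549492 to 46966995 in conceptuses, and the members together took 36666 to 448809 reads per endometrium library and 9380 to 26042 per conceptus library. The tissues carried their labels' markers. Trophoblast products (8 genes, IFNT2 among them) summed to 1.15 to 4.08 counts-per-million (CPM) in the endometrium libraries against 10080 to 83370 CPM in the conceptuses, and 6 endometrial regulators, PGR and ESR1 among them, summed to 262 to 442 CPM in endometrium against 1.92 to 10.5 CPM in conceptuses. Levels are given throughout as CPM, scaled within each tissue by edgeR's TMM factors, and differences as log2 fold changes ± standard error. A gene was called when edgeR's quasi-likelihood test gave a Benjamini-Hochberg adjusted p under 0.05 over all genes tested in that tissue.

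All 35 tested members were higher in pregnant than in non-pregnant endometrium, in both the HF and the SF heifers. In P-HF against NP-HF the test called 35 of 35 members higher, where 10.2% of all 19606 genes were called higher and 20.8% either way. The median log2 fold change of the members was 2.89 (range 0.77 to 5.28), against -0.01 over all genes. The rise reached 2-fold in 34 members, 4-fold in 25 and 8-fold in 16. In P-SF against NP-SF 35 of 35 were again called higher, where 3.18% of all genes were called higher and 4.07% either way. Here the median was 2.41 (range 0.71 to 4.46), with 33 members at 2-fold or more, 22 at 4-fold and 11 at 8-fold. Because the list was chosen with earlier results of these data known, these counts, and those of overlap below, are a description. They are not an independent test. Since these are bulk samples, more cells that express a gene and more RNA of it per cell cannot be told apart.

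The animals of the groups compared hardly overlapped. All 5 P-HF animals lay above all 5 NP-HF animals in 34 of 35 members (6.14% of all genes did so), and all 5 P-SF animals lay above all 5 NP-SF animals in 35 of 35 (3.91% of all genes). Over all classes, each of the 10 pregnant libraries exceeded each of the 15 non-pregnant ones in 34 of 35 members (97.1%), against 1.51% of all genes. The exception was LAP3, whose lowest pregnant value of 89.3 CPM lay under the highest non-pregnant value of 96.2 CPM. A member score, the mean over the 36 members of log2(CPM + 1), was 5.20 ± 0.20 in NP-HF, 5.30 ± 0.28 in NP-SF and 5.46 ± 0.30 in NP-IF (SD, n = 5 each), and 7.96 ± 0.39 in P-HF and 7.69 ± 0.46 in P-SF. The lowest pregnant score, 7.31, stood well above the highest non-pregnant score, 5.86.

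**Figure D1:**
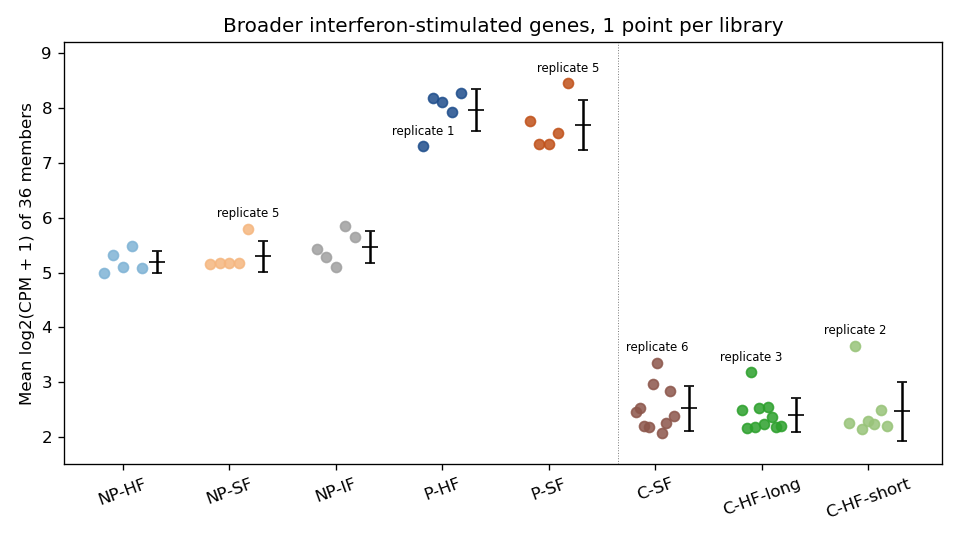
Member score (mean of log2(CPM + 1) over 36 members) of every library by group, each point 1 library and each line a group mean. The 10 pregnant endometrium libraries lie between 7.31 and 8.46, the 15 non-pregnant ones between 4.99 and 5.86 and the 27 conceptuses between 2.08 and 3.67, the conceptuses being scaled separately.

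The role group with the largest median rise held IFI44, IFI44L, the guanylate-binding protein GBP4, EPSTI1, SAMD9 and the binding partners NMI and IFI35. Its 7 members rose by a median log2 fold change of 3.99 in HF (1.77 to 5.28) and 3.60 in SF (1.63 to 4.46). IFI44L, a paralog of IFI44 found in the cytoplasm, had 6.84, 14.3, 9.97, 24.4 and 10.5 CPM in the 5 NP-HF heifers and 266, 624, 556, 463 and 650.5 CPM in the 5 P-HF heifers. In the SF class it had 12.1, 11.5, 13.1, 15.2 and 38.8 CPM without and 334, 228, 216, 309 and 908 CPM with pregnancy. The lowest pregnant value was thus over 5 times the highest non-pregnant value of either class, and the last animal of each SF group was the highest of its group. IFI44L rose 38.9-fold in HF (log2 5.28 ± 0.52, edgeR adjusted p = 1.2e-07) and 22.0-fold in SF (log2 4.46 ± 0.49).

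IFI44, its paralog, had 5.36, 12.2, 5.38, 10.7 and 6.03 CPM in NP-HF against 182, 316, 291, 226 and 329.8 CPM in P-HF. Its NP-SF values were 9.01, 5.94, 7.67, 9.05 and 22.2 CPM and its P-SF values 179.8, 153, 147, 175 and 487 CPM. Neither class overlapped, and the changes were 5.09 ± 0.47 in HF and 4.41 ± 0.45 in SF on the log2 scale. SAMD9, a cytoplasmic antiviral protein, had 10.1, 19.4, 15, 30.3 and 12.9 CPM in NP-HF and 211, 520.3, 389, 314 and 459 CPM in P-HF. In SF it had 15.6, 18.9, 14, 15.2 and 46.6 CPM without pregnancy and 339.6, 190.4, 168, 329.7 and 656 CPM with it. Its changes, 4.43 ± 0.45 and 3.93 ± 0.44, again came with no overlap of the groups.

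EPSTI1 had the smallest p of this group. Its values were 12, 22, 18.2, 27.8 and 13.9 CPM in NP-HF, 194, 318, 308, 292 and 382 CPM in P-HF, 14.8, 18.2, 16.2, 21.9 and 34.7 CPM in NP-SF, and 240.1, 184, 168, 228 and 464 CPM in P-SF. The lowest pregnant animal (168 CPM) stood far above the highest non-pregnant one of these classes (34.7 CPM), with changes of 3.99 ± 0.32 in HF and 3.60 ± 0.31 in SF. GBP4, a GTPase, changed by 2.72 ± 0.38 and 2.11 ± 0.37. The smaller rises were those of IFI35 (1.77 ± 0.18 and 1.63 ± 0.18) and NMI (1.82 ± 0.25 and 1.72 ± 0.25), which bind each other.

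**Figure D2:**
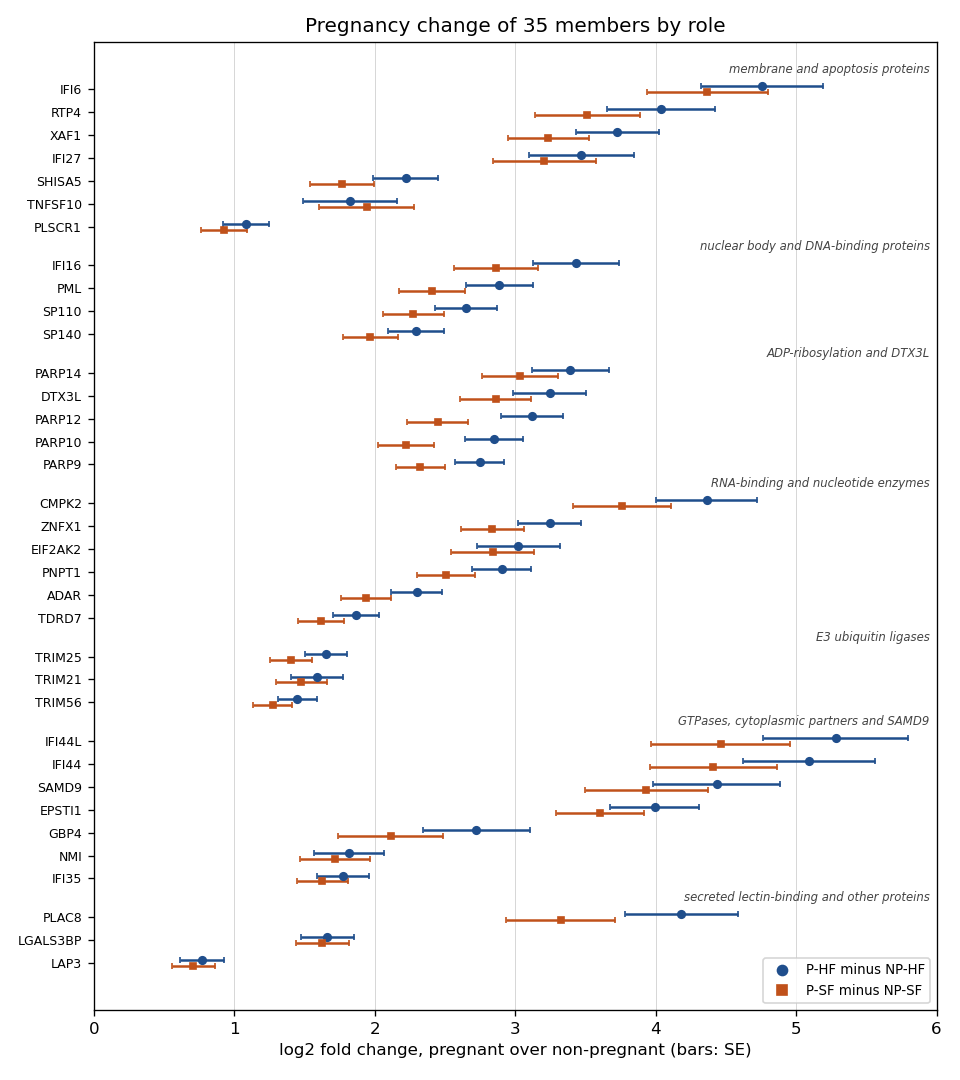
Log2 fold change of each tested member with pregnancy in HF and in SF heifers (5 animals in each group), with members grouped by role and bars showing the standard error. All 35 lie above 0 in both comparisons, from 0.77 to 5.28 in HF and from 0.71 to 4.46 in SF.

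Among proteins of membranes and cell death, 7 were tested, and they rose by a median of 3.47 in HF (1.08 to 4.76) and 3.21 in SF (0.93 to 4.37). IFI6, a small membrane protein that restrains cell death, had 87.1, 127, 84.5, 112 and 94.1 CPM in NP-HF and 842, 2566, 3139, 3254 and 3859 CPM in P-HF. In SF its values went from 65.5, 86.2, 103, 78.5 and 152 CPM to 1765, 1608, 1393, 977 and 4269 CPM. The first P-HF animal and the fourth P-SF animal were the lowest of their groups, and even they stood more than 5 times above the highest non-pregnant animal of their class. The change was 27.0-fold in HF (log2 4.76 ± 0.44, edgeR adjusted p = 4.8e-08) and 20.6-fold in SF (4.37 ± 0.43).

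XAF1, an antagonist of the caspase inhibitor XIAP, had 18.1, 19.8, 16.6, 19.7 and 11 CPM in NP-HF and 118, 244, 262, 239 and 265 CPM in P-HF. It had 17.4, 17.9, 13.54, 19.5 and 29.4 CPM in NP-SF and 184, 127, 141, 148 and 321 CPM in P-SF. No animals overlapped, and the changes were 3.73 ± 0.29 and 3.24 ± 0.29. PLSCR1, a phospholipid scramblase, moved far less. Its values were 150.4, 146, 205, 196 and 162 CPM in NP-HF, 299.7, 433, 352, 322 and 417 CPM in P-HF, 166, 129, 161, 153 and 226 CPM in NP-SF, and 288, 279, 248, 314 and 458 CPM in P-SF. Its groups still did not overlap in either class, with changes of 1.08 ± 0.16 (edgeR adjusted p = 5.2e-05) and 0.93 ± 0.16.

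RTP4, a chaperone of receptors on their way to the membrane, changed by 4.04 ± 0.38 in HF and 3.51 ± 0.37 in SF, and IFI27, a mitochondrial membrane protein, by 3.47 ± 0.37 and 3.21 ± 0.37. SHISA5, a membrane protein linked to cell death, changed by 2.22 ± 0.23 and 1.77 ± 0.23. TNFSF10, the death receptor ligand TRAIL, was the 1 member whose change was the larger in SF, at 1.94 ± 0.34 against 1.83 ± 0.33 in HF. Its non-pregnant animals were widely spread, from 27.6 to 84.5 CPM in NP-HF and NP-SF, and its pregnant animals ran from 106 to 248 CPM.

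The ADP-ribosylation proteins moved within a narrow band. All 5 (PARP9, PARP10, PARP12, PARP14 and DTX3L, the ubiquitin ligase that pairs with PARP9) rose by log2 2.75 to 3.39 in HF and 2.22 to 3.03 in SF. PARP9 had the smallest p of all members. Its 5 NP-HF animals had 61, 67.5, 65.5, 68.4 and 69.2 CPM and its 5 P-HF animals 279, 553, 415, 471 and 507 CPM. Its NP-SF animals had 65.1, 75.7, 80.3, 63.3 and 97.7 CPM, and its P-SF animals 403, 299.7, 301, 372 and 538 CPM. The NP-HF animals differed little among themselves (SD 3.29 CPM), and the changes were 6.71-fold in HF (log2 2.75 ± 0.18, edgeR adjusted p = 1.4e-09) and 5.01-fold in SF (2.32 ± 0.17). PARP14 changed by 3.39 ± 0.27 and 3.03 ± 0.27, and DTX3L by 3.25 ± 0.26 and 2.86 ± 0.26. PARP9 and DTX3L overlap in the RefSeq annotation of ARS-UCD2.0, and the sources used here do not say whether reads were counted by strand, so part of their reads may be shared.

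The 4 nuclear body and DNA-binding proteins rose by a median of 2.77 in HF and 2.34 in SF. PML, the scaffold of PML nuclear bodies, had 30.1, 29.5, 28.5, 28.9 and 25.8 CPM in NP-HF against 106, 210.4, 238, 223 and 279 CPM in P-HF. In SF it had 31.7, 29.2, 25.9, 30.6 and 42.3 CPM without pregnancy and 156, 119, 127, 147 and 298 CPM with it. The animals did not overlap, and the changes were 2.89 ± 0.24 and 2.41 ± 0.23. IFI16, a nuclear DNA sensor, changed by 3.43 ± 0.31 and 2.87 ± 0.30, and the nuclear body proteins SP110 and SP140 by 2.65 ± 0.22 and 2.29 ± 0.20 in HF.

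RNA and nucleotide metabolism gave 6 members with a median of 2.96 in HF (1.87 to 4.36) and 2.67 in SF (1.62 to 3.76). CMPK2, a mitochondrial nucleotide kinase, led them with 21.1, 24.7, 23, 30.8 and 26.1 CPM in NP-HF and 264, 673, 514, 495 and 639 CPM in P-HF. It had 21.6, 28.7, 23.6, 25.5 and 64.8 CPM in NP-SF and 431, 258, 272, 411 and 846 CPM in P-SF. The last NP-SF animal was again well above the other 4, yet under every pregnant animal, and the changes were 4.36 ± 0.36 and 3.76 ± 0.35. ZNFX1, an RNA helicase that senses viral RNA, had 87.1, 97.1, 74.2, 96.5 and 82.9 CPM in NP-HF and 469.5, 891, 927, 806 and 1057 CPM in P-HF. In SF its values were 86.2, 92.9, 86, 91 and 139 CPM without and 724, 529, 516, 683 and 1088 CPM with pregnancy. It changed by 3.24 ± 0.23 (edgeR adjusted p = 1.9e-09) and 2.84 ± 0.22, with no overlap. The kinase PKR (EIF2AK2), which halts translation, changed by 3.02 ± 0.30 and 2.84 ± 0.30, the RNA-processing exonuclease PNPT1 by 2.91 ± 0.21 and 2.51 ± 0.21, the RNA-editing enzyme ADAR by 2.30 ± 0.18 and 1.94 ± 0.18, and TDRD7 by 1.87 ± 0.17 and 1.62 ± 0.16.

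The 3 TRIM ubiquitin ligases rose less, by log2 1.45 to 1.65 in HF and 1.27 to 1.48 in SF, and they were steady in the absence of pregnancy. TRIM25, which acts with the RNA sensor RIG-I, had 28.9, 26, 28.9, 31.9 and 25.8 CPM in NP-HF and 55.9, 101, 104, 80.5 and 104 CPM in P-HF. Its NP-SF values of 25, 27.4, 28.8, 26.1 and 31.9 CPM compare with P-SF values of 73.1, 55.8, 64.1, 76.3 and 99.1 CPM. These groups did not overlap, and the changes were 1.65 ± 0.15 (edgeR adjusted p = 4.1e-08) and 1.40 ± 0.15. TRIM56 had 113, 109, 101, 106 and 89.4 CPM in NP-HF, 198, 319.9, 320.0, 268 and 309 CPM in P-HF, 94.7, 110.1, 106, 99.5 and 107 CPM in NP-SF, and 270.1, 192, 194, 243 and 351 CPM in P-SF. It changed by 1.45 ± 0.14 and 1.27 ± 0.14. TRIM21, an antibody receptor of the cytosol, changed by 1.59 ± 0.18 and 1.48 ± 0.18.

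The remaining tested members were unlike one another. PLAC8 rose strongly, from 4.25, 5.98, 4.34, 8.24 and 7.29 CPM in NP-HF to 67.5, 92.3, 119.8, 118 and 147 CPM in P-HF. In SF it went from 4.93, 5.71, 11.4, 6.96 and 9.23 CPM to 60.3, 57, 53, 66.6 and 147 CPM. The change was 18.2-fold in HF (4.18 ± 0.40) and 10.0-fold in SF (3.32 ± 0.39), and in P-SF 4 animals lay close together and the last lay above them. LAP3, a leucine aminopeptidase, had the smallest rise. Its values were 62.6, 69.4, 94.8, 80.3 and 74.5 CPM in NP-HF, 89.3, 141, 126, 130.0 and 166 CPM in P-HF, 64.3, 78.5, 70.1, 62.2 and 77.7 CPM in NP-SF, and 95.6, 109.9, 102, 97.6 and 172 CPM in P-SF. The lowest P-HF animal fell below the highest NP-HF animal, and the changes were 0.77 ± 0.16 (edgeR adjusted p = 0.001) and 0.71 ± 0.16 (edgeR adjusted p = 0.0076). LGALS3BP, a secreted glycoprotein that binds galectins, changed by 1.66 ± 0.19 and 1.63 ± 0.19.

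**Figure D3:**
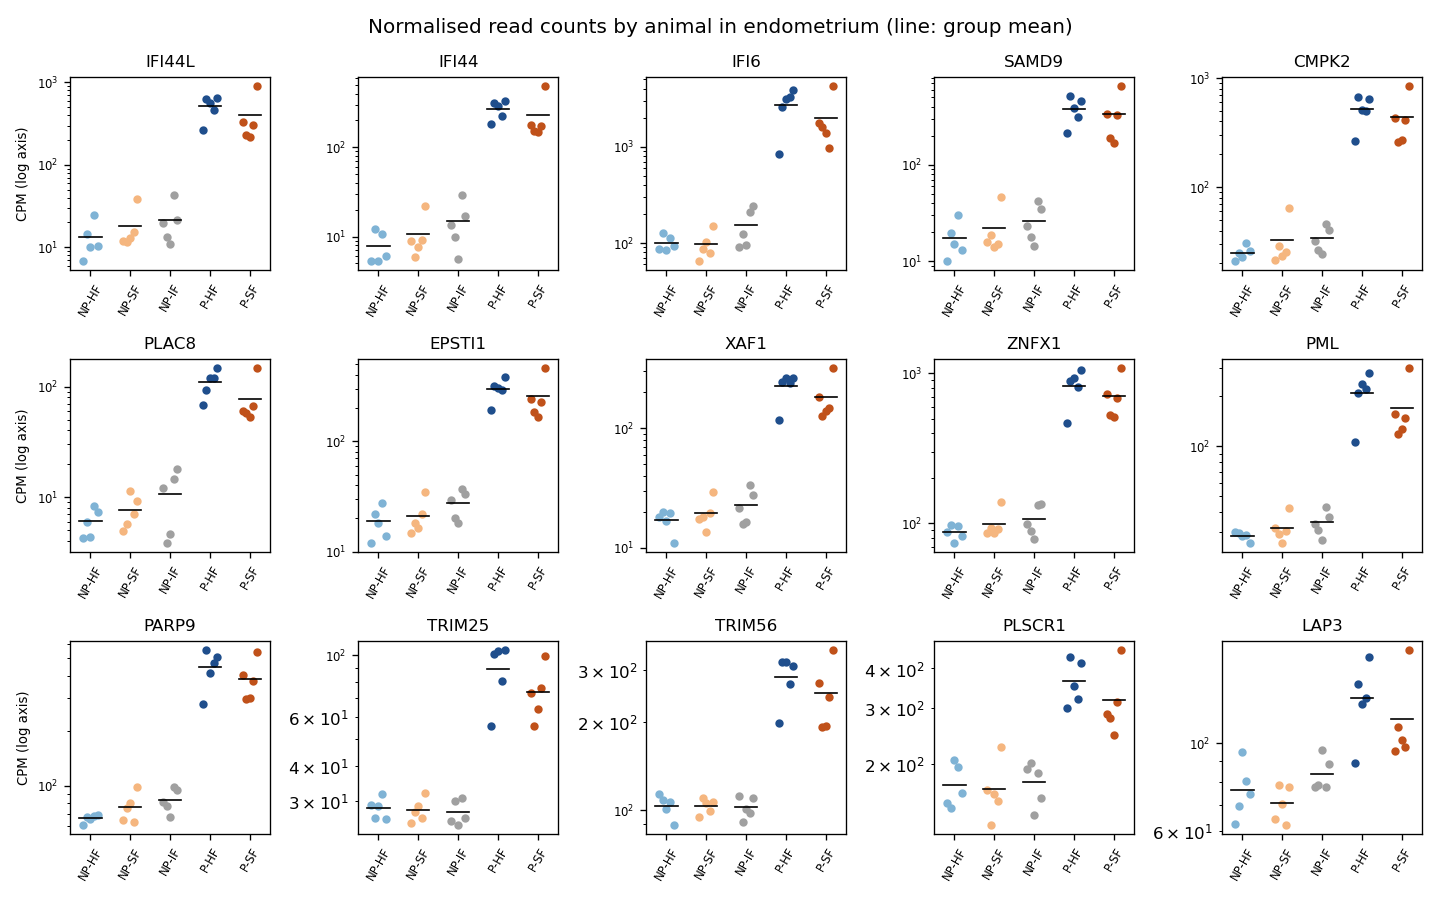
Normalised read counts (CPM, log axes) of the 15 members described by animal, each point 1 animal and each line a group mean, in the 5 endometrium groups. The pregnant and non-pregnant animals separate in every panel except LAP3, and the highest P-SF point is the same animal throughout.

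The other genes of the interferon response, in the families set aside above, moved with the members. Of 44 such genes tested, 40 were called higher in HF (median log2 2.68) and 40 in SF (median 2.39), and none lower. The MX, IFIT, OAS and RSAD2 list had 11 of 12 higher in each class (medians 5.30 and 4.62), and the ISGylation list 6 of 6 (4.26 and 3.77). Antigen processing by MHC class I had 10 of 10 with small changes (1.21 and 1.12). Upstream of these, the receptor chains IFNAR1 (-0.11 ± 0.12 in HF, 0.07 ± 0.12 in SF) and IFNAR2 (-0.09 ± 0.12 and 0.34 ± 0.12) were not called. JAK1 and TYK2 fell by 0.22 and 0.24 in HF and were not called in SF (0.02 ± 0.06 and -0.18 ± 0.06). The feedback inhibitor SOCS3 rose in both classes (1.46 ± 0.29 and 1.24 ± 0.29), and SOCS1 rose in HF (1.28 ± 0.32) and was not called in SF (0.87 ± 0.31).

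Some markers of cell types in the endometrium also differed between pregnant and non-pregnant samples. Of 17 leukocyte markers, 3 were called higher and 1 lower in HF, and 1 higher in SF, shares near the 20.8% and 4.07% of all genes called either way. Their sum ran from 134 to 216 CPM in NP-HF and 164 to 255 CPM in P-HF, and from 127 to 150 CPM in NP-SF and 159 to 244 CPM in P-SF. The macrophage and monocyte markers CD14, CD68, AIF1, CSF1R and CD163 all had higher means with pregnancy in both classes. The means of the other leukocyte markers went both ways. Epithelial markers (7 genes) summed to 970 to 1286 CPM in NP-HF and 1491 to 1782 CPM in P-HF, with 3 of 7 called higher. Stromal markers (8 genes) summed to 12840 to 24730 CPM in NP-HF and 5192 to 8542 CPM in P-HF, with 5 of 8 called lower. Among these the collagens fell most: the mean of COL3A1 went from 6954 to 1887 CPM and that of COL1A2 from 3370 to 1151 CPM. PDGFRA alone had a higher mean in P-HF (337.2 against 253.8 CPM), and it was not called. In SF the epithelial sums were 911 to 1424 and 1280 to 1557 CPM, with 1 of 7 called higher. The stromal sums, at 10990 to 16400 and 9905 to 12490 CPM, overlapped with no stromal marker called. The part of these cell types in the members' rise was not tested.

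Whether the rise differed between the fertility classes was tested as the difference of the 2 pregnancy changes. No member was called by edgeR (1 of 19606 genes was, 0.00510%), none by DESeq2, and 2 members had an unadjusted p under 0.05, where 6.81% of all genes did. The difference (SF minus HF) was nevertheless negative in 34 of 35 members, with a median of -0.39 and a range of -0.86 to 0.12. It was -0.63 ± 0.27 for PARP10 (95% interval -1.19 to -0.07, edgeR adjusted p = 0.682) and -0.67 ± 0.29 for PARP12 (-1.27 to -0.08, edgeR adjusted p = 0.677). The intervals of the other 33 held 0, and the widest reached well past a 2-fold difference: for IFI44L the difference was -0.82 (-2.10 to 0.46) and for PLAC8 -0.86 (-1.92 to 0.20). The members move together between animals, so 34 of 35 is not 34 separate observations. Single animals set its size: the median was -0.60 without the fifth P-SF animal, -0.53 without the first P-HF animal and -0.20 without the fifth NP-SF animal, with 31 members still negative in the last case.

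PARP10, a mono-ADP-ribosyltransferase, had 37.6, 31.6, 34.5, 43.5 and 37.5 CPM in NP-HF, 147, 282, 331, 249 and 324 CPM in P-HF, 45.5, 49.8, 46.9, 39.9 and 56.4 CPM in NP-SF, and 247, 177, 198, 167 and 325 CPM in P-SF. PARP12, an enzyme of the same kind, had 60.6, 64.1, 68.4, 80.5 and 66.3 CPM in NP-HF, 314, 659.6, 614, 594 and 774 CPM in P-HF, 72.4, 82.9, 69.7, 71 and 114 CPM in NP-SF, and 498, 324, 365, 378.6 and 670.4 CPM in P-SF. For both genes the mean of the SF group lay above that of the HF group without pregnancy and below it with pregnancy, and in each state the animals of the classes overlapped. Across the 35 members the changes in the 2 classes had nearly the same order (Spearman's rho 0.99, slope of SF on HF 0.85). This correlation is across genes, which are not replicates, and the comparisons share no library but come from the same fit.

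**Figure D4:**
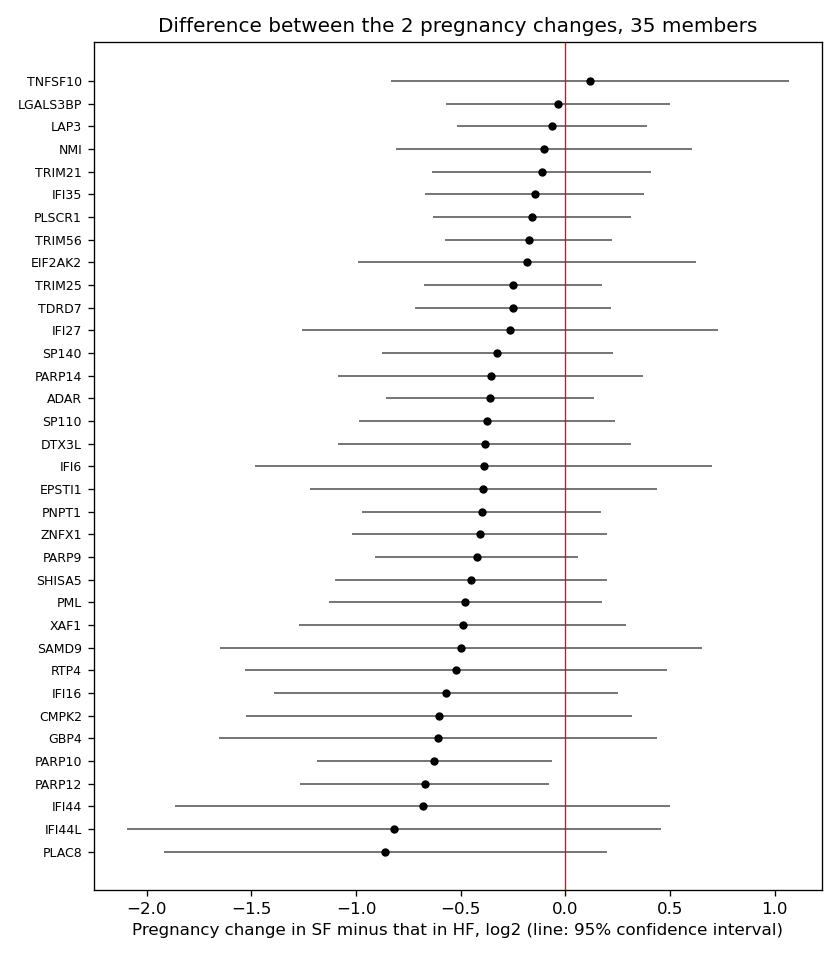
Pregnancy change in SF minus that in HF (log2) for the 35 members, points with their 95% confidence intervals and a line at 0. The estimates lie left of 0 for all members except TNFSF10, and all intervals except those of PARP10 and PARP12 reach 0.

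Between the classes in the same state no member was called, which with 5 animals a group does not show that the classes were equal. In P-SF against P-HF no member was called by edgeR or DESeq2 (0% of all genes by edgeR) and none had an unadjusted p under 0.05 (10.1% of all genes did). The median difference was -0.24, with 34 of 35 negative. It was -0.50 without the fifth P-SF animal, -0.37 without the first P-HF animal, and -0.14 without either the second or the third P-SF animal. The smallest p values were those of PARP12 (-0.40 ± 0.20, edgeR adjusted p = 0.511), TRIM25 (-0.27 ± 0.15, edgeR adjusted p = 0.530) and SP110 (-0.35 ± 0.21, edgeR adjusted p = 0.572).

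The pregnant animals varied together over the members. The fifth P-SF animal was the highest of its group in 35 of 35 members and the highest of all 10 pregnant animals in 24, at a median log2 difference of 0.84 from the rest of its group. The first P-HF animal was the lowest of its group in 33 of 35, at a median of -0.88. The exceptions were IFI27, with 386, 513, 570.0, 305 and 622 CPM in P-HF, and GBP4, with 815, 565, 569, 452 and 703 CPM. In GBP4 that animal was the highest of its group. In the fifth P-SF animal the leukocyte markers (244 CPM) and the epithelial markers (1557 CPM) were also the highest of the group, and its stromal (9905 CPM) and endothelial (389.5 CPM) markers the lowest. In the first P-HF animal the epithelial markers (1491 CPM) were the lowest of the group and the stromal markers (8542 CPM) the highest, with the leukocyte markers at 180 CPM and the endothelial markers at 438.5 CPM within its range. The part of these cell types in the animals' places was not tested. For these animals and those described below, the share of all genes in which each was highest or lowest is not given here. Whether such places are particular to the members was not tested.

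Among the non-pregnant groups no member was called in any of the 3 comparisons by edgeR or DESeq2, and 0% of all genes were by edgeR. In NP-SF against NP-HF the median difference was 0.17, with 26 members positive and 9 negative, and none had an unadjusted p under 0.05 (3.62% of all genes did). The smallest p values belonged to PARP10 (0.37 ± 0.19), PARP12 (0.27 ± 0.20) and PARP9 (0.20 ± 0.17). The positive median rested on the fifth NP-SF animal, which was the highest of its group in 29 of 35 members and of all 15 non-pregnant animals in 15. Without it the median was -0.04, with 14 positive and 21 negative. That animal's leukocyte markers (130 CPM) lay within the range of its group and its epithelial markers (1424 CPM) were the highest of the group, with the stromal (11940 CPM) and endothelial (397.4 CPM) markers within its range. The part of these cell types was not tested.

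NP-IF against NP-HF gave the largest median of the 3. It was 0.29, with 30 of 35 positive, and 4 members had an unadjusted p under 0.05 (5.46% of all genes did). They were IFI27 (0.99 ± 0.34), PARP10 (0.46 ± 0.19), IFI44 (0.93 ± 0.42) and PLAC8 (0.83 ± 0.37), each with an edgeR adjusted p of 0.903. IFI27 had 62.3, 50.5, 41.7, 141 and 132 CPM in NP-IF and 23.3, 73.7, 24, 54.5 and 40.7 CPM in NP-HF. NP-IF replicates 4 and 5 were high and the other 3 overlapped NP-HF. IFI44 had 13.6, 9.87, 5.62, 28.9 and 16.9 CPM in NP-IF, and PLAC8 12, 3.85, 4.67, 14.7 and 18 CPM. The third NP-IF animal was the lowest of its group in 24 of 35 members and the fourth the highest in 22. Without the fourth the median was 0.20.

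NP-IF against NP-SF shares its NP-IF animals with that comparison. Its median was 0.13 (32 positive, 3 negative), and it was 0.02 without the fourth NP-IF animal and 0.28 without the fifth NP-SF animal. IFI27 was the 1 member with an unadjusted p under 0.05 (0.80 ± 0.34, edgeR adjusted p = 0.999), and 784 of 19606 genes had one. IFI6 (0.65 ± 0.38) and LAP3 (0.25 ± 0.16) followed it.

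In the conceptuses most members were low. The following levels stand beside those of endometrium without a test, since the tissues were extracted and scaled separately. By the animal numbers in the titles, 8 of the 10 pregnant endometrium animals also gave conceptus libraries, so the tissues share animals. The conceptus median was under 1 CPM in 14 of 36 members and under 10% of the pregnant endometrium median in 29, and 11 members had 0 reads in at least 1 conceptus. IFI6 had a median of 1.05 CPM in conceptuses against 2166 CPM in pregnant endometrium. The members nearest to endometrium were LAP3 (75.3% of the pregnant endometrium median), TRIM25 (36.4%), PNPT1 (18.2%), SHISA5 (17.8%), TRIM56 (15.8%) and EIF2AK2 (11.4%). The conceptus median lay above that of non-pregnant endometrium for PNPT1 (79.2 against 64.2 CPM), TRIM25 (28.5 against 27.4 CPM), LAP3 (88.6 against 77.6 CPM) and LGALS9, a secreted galectin. LGALS9 had 2339 reads over the conceptuses (median 2.34 CPM) and a median of 0 in pregnant endometrium.

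**Figure D5:**
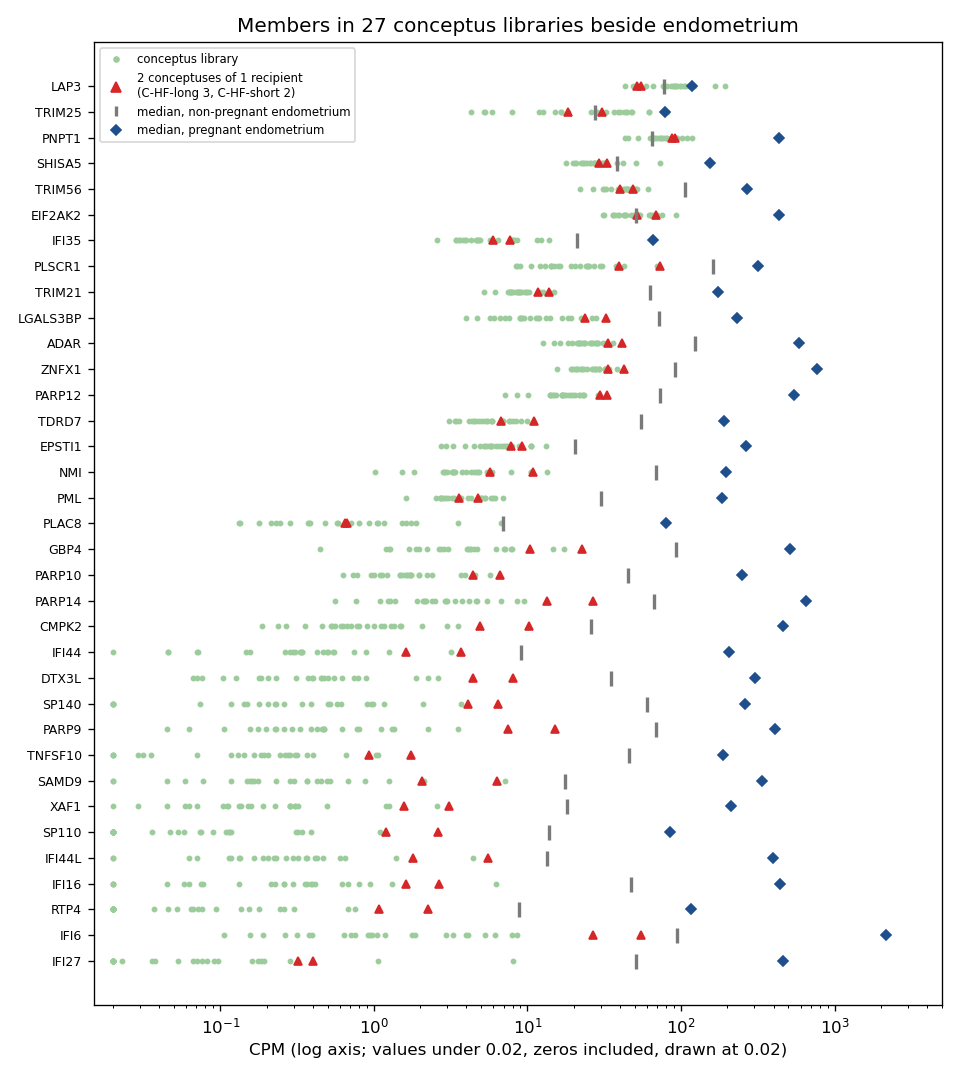
CPM (log axis) of each member except LGALS9 in every conceptus library, each point a library, with the medians of pregnant and non-pregnant endometrium. Members are ordered by their conceptus median as a percentage of the pregnant endometrium median. Triangles mark C-HF-long replicate 3 and C-HF-short replicate 2, which share a recipient, and zeros and values close to zero are drawn at a fixed low value. All members shown have their highest median in pregnant endometrium, and LAP3, TRIM25 and PNPT1 come nearest to it in conceptuses.

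PLAC8 was the 1 member called between conceptus groups. Its level in the 10 C-SF libraries was 0.246 CPM at the lowest, 1.34 CPM at the median and 6.68 CPM at the highest, against 0.132, 0.302 and 0.935 CPM in C-HF-long. The C-SF conceptuses were mostly higher and the groups overlapped. The log2 difference was 2.25 ± 0.51 (95% interval 1.21 to 3.30, edgeR adjusted p = 0.0116), in a comparison that called 3.80% of all 16330 genes higher and 8.90% either way. These are 9 to 239 reads per C-SF library and 3 to 36 per C-HF-long library. The call held without the highest library, C-SF replicate 6 (1.74, edgeR adjusted p = 0.0256), and with counts summed per recipient (edgeR adjusted p = 0.0226). It was lost when libraries were grouped by their descriptions in place of their titles (0.63, edgeR adjusted p = 0.768), where no gene at all was called. Where titles give a length, the C-SF conceptuses were mostly shorter than those of C-HF-long. A difference in recipient class and one in conceptus length therefore cannot be told apart in this comparison. The part of length in the PLAC8 difference was not tested, and PLAC8 was not called in C-SF against C-HF-short.

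The other members of this comparison had a median difference of 0.40 with PLAC8 included, 25 positive and 8 negative. LGALS3BP, at medians of 9.03 CPM in C-SF and 16.7 CPM in C-HF-long, differed by -1.03 ± 0.34 (edgeR adjusted p = 0.0576). PLSCR1, at medians of 24.9 and 14.5 CPM, differed by 0.94 ± 0.38 (edgeR adjusted p = 0.106). Of 38 other interferon-stimulated genes tested there, 3 were called higher, where 3.80% of all genes were. All 3 were among the 10 genes of MHC class I processing.

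C-SF against C-HF-short shares the C-SF libraries with it. No member was called by edgeR or DESeq2 (0.00612% of all genes were by edgeR), and 1 had an unadjusted p under 0.05, PLAC8 (1.31 ± 0.64, edgeR adjusted p = 0.555). TRIM56 (-0.30 ± 0.15) and LGALS3BP (-0.66 ± 0.34) came next. In C-HF-short against C-HF-long no member was called by edgeR or DESeq2 (0% of all genes by edgeR) and none had an unadjusted p under 0.05, where 3.67% of all genes did. The median was 0.45 with 27 of 33 positive, and the smallest p values were those of CMPK2 (1.34 ± 0.69), IFI44L (1.63 ± 0.89) and SAMD9 (1.77 ± 1.01), each with an edgeR adjusted p of 0.933. These medians rested on 1 recipient. Without its conceptuses, C-HF-short replicate 2 and C-HF-long replicate 3, the median of C-HF-short against C-HF-long was -0.04 (15 positive, 18 negative) and that of C-SF against C-HF-short went from -0.09 to 0.70.

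Those conceptuses, which shared a uterus, stood above the other 25 together in 9 of 36 members: IFI6, RTP4, SP110, SP140, PARP9, PARP12, PARP14, DTX3L and CMPK2. Their IFI6 levels were 54.5 CPM in C-HF-short replicate 2 and 26.8 CPM in C-HF-long replicate 3, while the highest conceptus outside this pair and C-SF replicate 6 had 8.59 CPM. Both levels are small beside endometrium, at 2.52% and 1.24% of the pregnant median. PARP9 reached 15.1 and 7.42 CPM (3.70% and 1.81%), whereas IFI27, at 0.400 and 0.320 CPM, was at 0.0863% and 0.0691% of it. C-HF-short replicate 2 was the highest conceptus in 20 of 36 members and in 19 of 38 other interferon-stimulated genes. The shares of all genes in which the pair, or this library, stood highest are not given here. Whether these counts are particular to the members was not tested.

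Most markers of other cell types in that pair lay within the range of the other conceptuses. Leukocyte markers summed to 14.2 and 13.8 CPM (11.5 to 69.4 over all conceptuses), stromal markers to 46.8 and 39.2 CPM (3.47 to 108), and endometrial regulators to 7.59 and 6.95 CPM (1.92 to 10.5). The sum of 5 endothelial markers, at 70.4 and 45.4 CPM, was the highest of all conceptuses, and 1 gene carried it. KDR, a receptor for VEGF, had 61.9 and 34.0 CPM in the pair against 0.179 to 10.9 CPM in the other conceptuses, while PECAM1, CDH5, TIE1 and VWF lay within the range of the others, with CDH5 at 0.0615 and 0 CPM. The part of KDR-expressing cells in the pair's levels was not tested. C-SF replicate 6 was the highest conceptus in 6 members, among them IFI27 (8.05 CPM), PLAC8 (6.68 CPM), SAMD9 (7.13 CPM) and IFI16 (6.24 CPM). Its leukocyte markers summed to 66.8 CPM and its red blood cell markers to 56.7 CPM. The latter sum was nearly all ALAS2. Over the C-SF libraries HBA was at 0 CPM, and HBB and HBA1 reached at most 0.028 and 0.158 CPM. The part of these markers was not tested either.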

How the data were processed

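The authors deposited whole-number counts of reads per gene for all 52 libraries, not normalized. The submitters' processing notes name HISAT2, StringTie, edgeR and the UMD 3.1 build, without versions or settings. Per the labels, libraries were made with a stranded mRNA kit. The 1020 lines with no gene name were left out. With edgeR 4.0.16 in R 4.3.3, genes were kept by filterByExpr (minimum count 10, minimum total 15), scaled by TMM and tested by quasi-likelihood in 1 fit of 25 endometrium libraries (19606 genes) and 1 of 27 conceptus libraries (16330 genes), the latter with the number series in the library names (20 and 7 libraries) as covariate. On simulated counts, with changes placed only in genes above a minimum mean count, the P-HF test recovered 75% of 2-fold and 97% of 4-fold changes. Of its 182 calls there, 10 were false. Replicate numbers follow the order of the samples. Conceptuses of 1 recipient are not independent. Members and gene lists were chosen with earlier results of these data known. Values by animal are given for the 5 largest and 3 smallest changes in P-HF against NP-HF and the smallest p of each role group, and elsewhere for called members and otherwise the 3 smallest p. PARP10, PARP12, TNFSF10, GBP4, IFI27 and the standout conceptuses were described after their values were seen. Alternatives were DESeq2 1.42.0 (test and size factors), limma-voom (limma 3.58.1), other filters, fits of only the groups compared, other groupings of conceptuses and leaving out each endometrium library.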

Additional observations from a re-analysis of the deposited data

Results flagged for a closer look

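The member score and the 15 members given by animal, taken as log2(CPM + 1), were checked in each group by Dixon's test. It looks for a highest or lowest library whose gap to the next is large against the group's range. Of 128 such groups 25 met it. Chance gives about 1 in 20 for normally distributed values, which these need not be, and the genes of a library are not independent.

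In NP-SF, the fifth animal was above the other 4 in the member score (5.80, others 5.16 to 5.17), IFI44L (38.8 CPM, others 11.5 to 15.2), SAMD9 (46.6, others 14 to 18.9), CMPK2 (64.8, others 21.6 to 28.7) and ZNFX1 (139, others 86.0 to 92.9). In P-HF, the first animal was below the other 4 in IFI6 (842 CPM, others 2566 to 3859) and XAF1 (118, others 239 to 265). In P-SF, the fifth animal was above the others in IFI44 (487 CPM, others 147 to 179.8), LAP3 (172, others 95.6 to 109.9) and PLAC8 (147, others 53.0 to 66.6).

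Among conceptuses, C-SF replicate 6 stood out in IFI44L (4.42 CPM, others 0 to 1.39) and IFI44 (3.19, others 0.156 to 1.26). C-HF-long replicate 3 did so in the score (3.18, others 2.16 to 2.55), IFI44L (1.80 CPM, others 0.0710 to 0.645), CMPK2 (4.89, others 0.187 to 1.501), PARP9 (7.42, others 0.0448 to 1.32) and XAF1 (1.57, others 0.0448 to 0.308). C-HF-short replicate 2, from the same recipient, did so in the score (3.67, others 2.15 to 2.49), IFI44L (5.53 CPM, others 0 to 0.295), IFI44 (3.72, others 0.0457 to 0.295), IFI6 (54.5, others 0.266 to 1.85), SAMD9 (6.33, others 0.0590 to 0.521), CMPK2 (10.2, others 0.236 to 2.06), PARP9 (15.1, others 0.177 to 0.805) and XAF1 (3.07, others 0.0292 to 0.321).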

How the results depend on the processing

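Under all 16 alternatives of each pregnancy comparison 35 of 35 members were called higher, with a median log2 fold change of 2.77 to 3.05 in HF and 2.17 to 2.53 in SF. No member was called under any alternative of the other 5 endometrium comparisons. In C-SF against C-HF-long, where 1 member was called, DESeq2's test called 2 (LGALS3BP lower, PLAC8 higher), grouping by the descriptions called 0 (PLAC8 0.63, edgeR adjusted p = 0.768), and leaving out both conceptuses of the recipient of C-HF-long replicate 3, chosen after seeing the data as was leaving out C-SF replicate 6, called 3 (PLSCR1, LGALS3BP and PLAC8). The cause was not tested. The adjusted p of PLAC8 in the other alternatives ran from 0.000752 to 0.0438. No paired analysis was possible for endometrium because each library is 1 animal and the labels give no replicate numbers. With the recipient as a replicate block (4 recipients with both classes), C-HF-short against C-HF-long called 0 members (median 0.17). Conceptus depth limits 14 members with a median under 1 CPM, and with 5 animals a group the intervals of the class difference reach past 2-fold for the most variable members.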

Other observations

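There were 8 recipients that gave 2 conceptus libraries, and their member scores differed by 0.0122 to 0.484 within a recipient. The highest pairs were C-HF-short replicate 2 with C-HF-long replicate 3 (3.67 and 3.18) and C-SF replicates 5 and 6 (2.96 and 3.36).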
